A study of Mus musculus with 17 samples.

Results

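The genes described here carry the symbols of translation initiation factors outside the eIF2 and eIF2B complexes. They were chosen by name as the protein-coding genes whose symbol begins with Eif, without the eIF2 subunits (Eif2s), the eIF2B subunits (Eif2b), the eIF2 kinases (Eif2ak) and pseudogenes. The rule found 42 genes among the 43430 gene IDs of each count table. It also takes in genes with other roles, such as the exon junction complex helicase Eif4a3, the eIF4E-binding inhibitors (Eif4ebp) and the eIF4E transporter Eif4enif1. All are counted with the factors below. RNA was sequenced from 17 libraries of alveolar epithelial type 2 (AT2) cells, the surfactant-making cells of the lung alveolus, sorted by flow cytometry from C57BL/6J mice aged 2 months. In the poly(A) set, 4 vehicle and 4 ISRIB libraries were made from 3 ng of RNA of naive mice, 24 h after either agent. ISRIB is a small molecule that activates eIF2B and so counters the integrated stress response. In the total-RNA set, 4 naive libraries and 5 bleomycin libraries were made from 0.35 ng of RNA, the latter 14 days after bleomycin, which injures the lung. All 9 total-RNA libraries carry the treatment label vehicle and a title that says saline, and so do the 4 vehicle libraries of the poly(A) set. The labels give no dose, and they do not say whether a library is 1 mouse or several, so p-values measure the spread between these libraries, which may be technical. Each comparison was made within its own kit.

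Translation of most mRNAs begins when eIF4F, made of the cap-binding eIF4E, the scaffold eIF4G and the helicase eIF4A, brings the mRNA to a small ribosomal subunit that carries eIF1, eIF1A, eIF3, eIF5 and the initiator tRNA on eIF2. The ribosome scans to a start codon, eIF5 triggers GTP hydrolysis on eIF2, and eIF5B joins the large subunit. The eIF4E-binding proteins hold eIF4E away from eIF4G until mTORC1 phosphorylates them. AT2 cells secrete large amounts of surfactant protein and lipid, which places a steady load on translation.

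Depth was 10493574 to 15727139 counts per library in the poly(A) set and 3295257 to 6333166 in the total-RNA set. Between 0.32% and 0.47% of the former and between 20.8% and 31.9% of the latter fell on models resembling ribosomal RNA. The bleomycin libraries had at least 1 count in 13940 to 17112 genes and the naive libraries in 17108 to 19763. All 12 AT2 markers were tested in both sets, and their summed level was 214000 to 223000 CPM in the poly(A) set, 90600 to 99800 in the naive and 54100 to 101000 in the bleomycin libraries. CPM are counts scaled to each library's TMM-adjusted size and to a common total. In bulk samples, fewer cells of a type and less RNA per cell cannot be told apart.

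Of the 42 genes, 39 passed the filter on low counts in each comparison. Eif4e1b, a germline form of eIF4E, had 0 counts in all 17 libraries. Eif3j2, a close copy of Eif3j1, had 42 counts over the poly(A) set and 14 over the total-RNA set. Eif4ebp3, which encodes an eIF4E-binding protein, had 17 and 13 counts, and none of these 3 genes was tested.

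The level per length of gene differed widely among the factors. Per kilobase of exon, the highest means in the vehicle libraries were 123 ± 2.38 CPM for Eif5a (SD, n = 4), 106 ± 7.61 for Eif3h, 102 ± 4.34 for Eif3b, 98.2 ± 11.4 for Eif4h and 94.4 ± 6.11 for Eif1. From Eif3h to Eif1 the SD ranges of neighbours overlapped, so their order is not resolved. The low end was Eif3j1 (2.35 ± 0.31 CPM per kilobase) and Eif5a2 (3.07 ± 0.54), with overlapping SD ranges. Eif3j2, the close copy of Eif3j1, can share its reads, and what that does to the place of Eif3j1 was not tested. In the naive libraries of the total-RNA set the order began with Eif3b (65.3 ± 2.91, SD, n = 4), Eif3c (62.1 ± 3.64), Eif3a (57.8 ± 3.45), Eif3h (53.4 ± 1.47) and Eif4a2 (50.8 ± 2.2), and the SD ranges of neighbours overlapped all along these genes. At its low end stood Eif5a2 (1.28 ± 0.28 CPM per kilobase) and Eif4ebp1 (1.38 ± 0.42), whose SD ranges overlapped too. The cap-binding Eif4e, often taken as the limiting member of eIF4F, stood low in both sets, at 5.04 ± 0.21 CPM per kilobase in the vehicle and 3.42 ± 0.52 in the naive libraries. Its partners in eIF4F stood higher, with Eif4g1 at 37.2 ± 1.75 and Eif4a2 at 59.4 ± 3.16 in the vehicle libraries. The kits differ, so levels are compared only inside a set. Length here is the union of all annotated exons, which can exceed that of the transcripts present. The order of genes, with the place of Eif4e, therefore also depends on the annotation, which the SD does not cover.

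**Figure D1:**
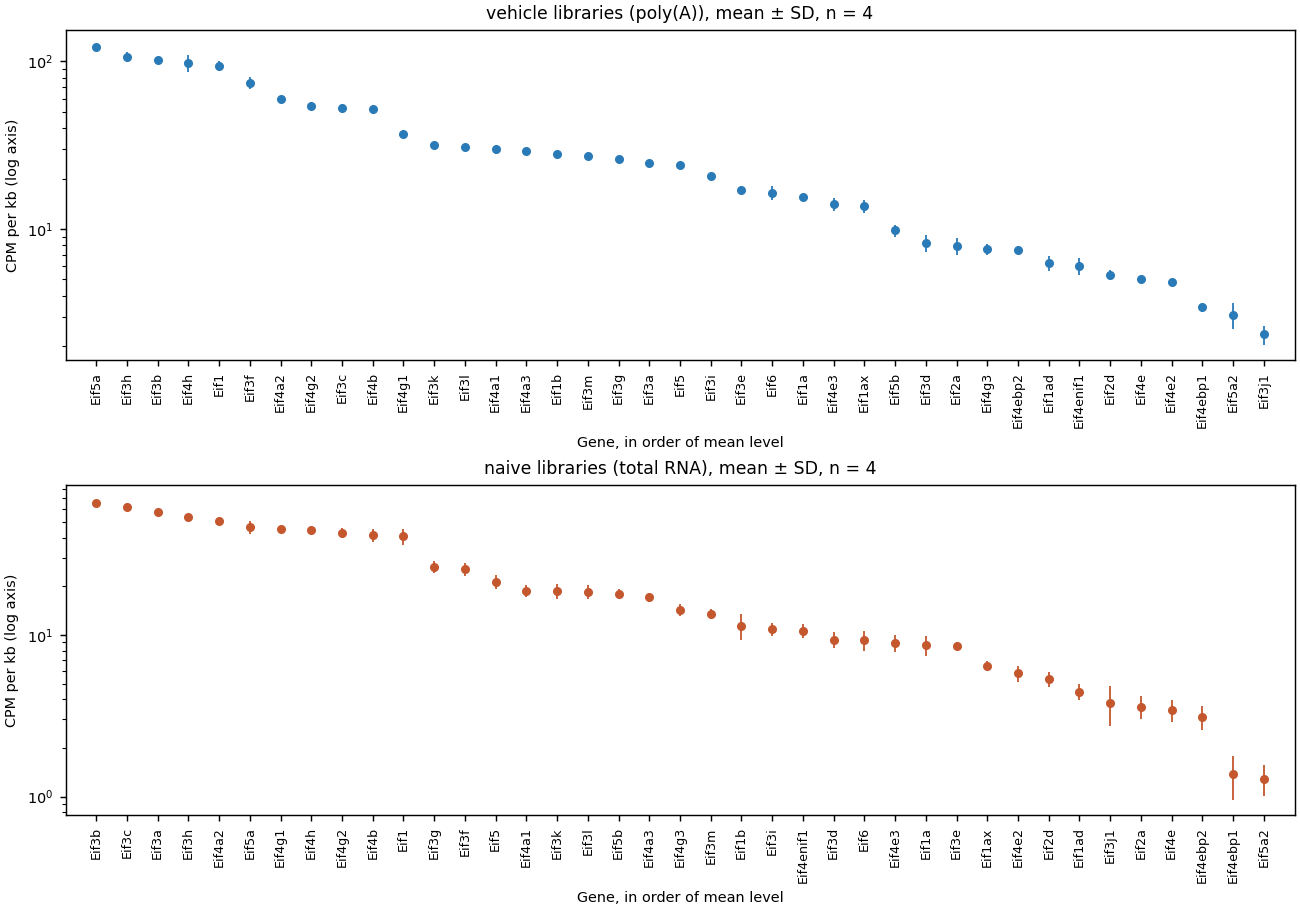
Mean level of the 39 tested genes in CPM per kilobase of exon (log axis), with SD over 4 libraries, in the vehicle libraries (upper) and the naive libraries (lower), each in its own order. Eif5a and Eif3b lead the 2 orders, and Eif4e lies near the low end of both.

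After bleomycin, 7 of the 39 tested genes were called at an adjusted p under 0.05 by edgeR's quasi-likelihood test with Benjamini-Hochberg adjustment over all genes, and all 7 rose. They encode 4 of the 13 tested eIF3 subunits (Eif3b, Eif3c, Eif3d and Eif3g), the scaffold Eif4g1, the helicase Eif4a1 and the hypusinated factor Eif5a2. In GRCm38 (GENCODE M21) these genes are annotated as Eif3b at chr5:140419328-140443360 (plus strand), Eif3c at chr7:126546455-126566411 (minus strand), Eif3d at chr15:77958998-77970813 (minus strand), Eif3g at chr9:20894349-20898623 (minus strand), Eif4g1 at chr16:20668313-20692884 (plus strand), Eif4a1 at chr11:69666936-69672423 (minus strand) and Eif5a2 at chr3:28781276-28798846 (plus strand). The share of called genes, 17.9%, lies near the background: 20.5% of all 11223 genes tested were called, 11.2% as higher and 9.31% as lower. The median log2 difference was 0.24 over the 39 genes and 0.0026 over all genes tested, with 27 genes above 0 and 12 below. The factors' summed level was 4060.1 to 4162.7 CPM in the naive and 4494.9 to 5339.6 CPM in the bleomycin libraries, and these ranges do not overlap. Abundant genes weigh most in that sum. Each gene's log2 level was also centred on its mean over the libraries, and the median over the 39 genes was taken per library. By that median the naive and bleomycin libraries overlapped.

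Eif5a2 had the largest difference. It encodes a second isoform of eIF5A, the factor that relieves stalled ribosomes and carries the modified amino acid hypusine. Its level was 6.71, 8.33, 5.41 and 5.37 CPM in naive 1 to 4 and 18.2, 28.1, 16.7, 10.8 and 13.9 CPM in bleomycin 1 to 5. The groups did not overlap, and bleomycin 2 was the highest library. The rise was 2.71-fold, or 1.44 on the log2 scale (SE 0.29, adjusted p = 0.0017, edgeR). Eif5a, the abundant isoform, had 100 to 122 CPM in the naive libraries and 113.5 to 147.6 CPM in the bleomycin libraries, with a log2 difference of 0.27 (SE 0.11, adjusted p = 0.105). Eif6, which keeps the large subunit from joining too early, had a log2 difference of 0.38 (SE 0.18, adjusted p = 0.156).

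Among the eIF3 subunits, Eif3d moved most. It encodes the subunit that can itself bind the cap of some mRNAs. It measured 49.0, 48.1, 50.1 and 39.0 CPM in naive 1 to 4 and 70.1, 101, 79.4, 68.4 and 77.8 CPM in bleomycin 1 to 5. The groups did not overlap, and the rise was 0.77 on the log2 scale (SE 0.14, adjusted p = 7.11e-04). Exons of Eif3d overlap the gene model Gm17638 on the other strand, and whether the authors counted by strand is not stated, so the reads of the pair cannot be told apart.

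Eif3c and Eif3b encode large core subunits. Eif3c stood at 227, 222, 199 and 223.5 CPM in naive 1 to 4 and at 307, 366.5, 295, 436 and 309 CPM in bleomycin 1 to 5. Eif3b stood at 205, 224, 226 and 219 CPM in naive 1 to 4 and at 258, 280, 307, 363 and 317 CPM in bleomycin 1 to 5. In both genes bleomycin 4 was the highest library and the groups did not overlap. The rise was 0.65 for Eif3c (SE 0.13, adjusted p = 0.00138) and 0.48 for Eif3b (SE 0.12, adjusted p = 0.00654), on the log2 scale.

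Eif3g, which encodes an RNA-binding subunit attached to eIF3b, was called with overlapping groups. It measured 53.0, 57.7, 53.1 and 46.5 CPM in naive 1 to 4 and 47.6, 86.1, 82.1, 90.3 and 66.7 CPM in bleomycin 1 to 5. Bleomycin 1 lay inside the naive range and the other bleomycin libraries above it. The rise was 0.50 on the log2 scale (SE 0.16, adjusted p = 0.0353). The call was lost when any 1 naive library, or bleomycin 2, 3 or 4, was left out, with adjusted p up to 0.124.

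The remaining eIF3 subunits were not called. Eif3a, the largest subunit, had 465 to 536.5 CPM in naive and 491 to 875 CPM in bleomycin libraries, with bleomycin 4 far above the rest, and a log2 difference of 0.31 (SE 0.14, adjusted p = 0.136). Eif3j1, the loosely attached subunit, had a log2 difference of 0.52 (SE 0.19, adjusted p = 0.0594). Eif3e (-0.05), Eif3f (-0.18), Eif3h (-0.22) and Eif3k (-0.008) had log2 differences below 0, and Eif3i (0.19), Eif3l (0.22) and Eif3m (0.0028) above 0. For Eif3h the naive libraries spanned 83.8 to 88.5 CPM and the bleomycin libraries 57.9 to 94 CPM, and the adjusted p was 0.281. Over the 13 tested subunits the median was 0.22 on the log2 scale.

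In the eIF4F group, the scaffold Eif4g1 measured 325, 334, 347 and 324 CPM in naive 1 to 4 and 474, 499, 447, 546 and 468 CPM in bleomycin 1 to 5. The lowest bleomycin library lay well above the highest naive one, and the rise was 0.55 on the log2 scale (SE 0.11, adjusted p = 0.00129). Eif4g2 encodes a scaffold that lacks the eIF4E-binding site, and it had 402 to 482 CPM in naive and 458 to 603.5 CPM in bleomycin libraries, a log2 difference of 0.27 (SE 0.12, adjusted p = 0.114). Eif4g3, the third scaffold, had a log2 difference of 0.07 (SE 0.12, adjusted p = 0.746).

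Eif4a1, which encodes the eIF4A1 helicase, measured 91.6, 77.3, 78.4 and 78.1 CPM in naive 1 to 4 and 104, 144, 124, 126 and 119 CPM in bleomycin 1 to 5. The groups did not overlap, and the rise was 0.60 on the log2 scale (SE 0.12, adjusted p = 0.00154). Its close paralog Eif4a2 had 257 to 284 CPM in naive and 174 to 313 CPM in bleomycin libraries, a log2 difference of -0.05 (SE 0.14, adjusted p = 0.839). Eif4b and Eif4h encode cofactors that stimulate the helicase, and their log2 differences were -0.22 (SE 0.11, adjusted p = 0.154) and -0.14 (SE 0.12, adjusted p = 0.424). Exons of Eif4a1, Eif4a2, Eif4g1 and Eif4g2 contain small RNA models on the same strand, so their counts also depend on how the authors treated such overlaps. Those of Eif4a2 also overlap Gm49346 on the same strand and Rfc4 on the other strand, which bears on its ratio to Eif4a1 below. In all, exons of 18 of the 42 genes overlap another gene model on either strand, and of those described here these include Eif1b, Eif2a, Eif2d, Eif3j1, Eif3m, Eif4e, Eif4e3, Eif5, Eif5b and Eif6.

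**Figure D2:**
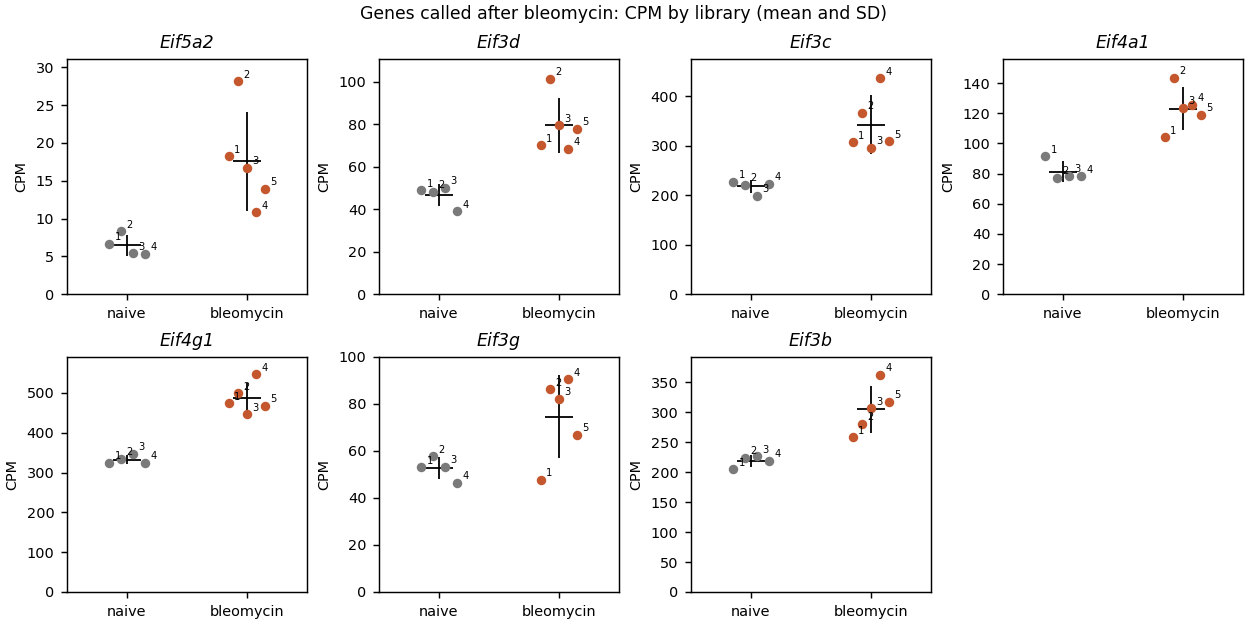
Level in CPM of the 7 called genes in each naive and bleomycin library (numbered points), with group mean and SD as black crosses. Eif3g is the gene whose groups overlap, with bleomycin 1 at 47.6 CPM.

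Cap-binding genes and their inhibitors were not called after bleomycin. Eif4e had 17.4 to 23.5 CPM in naive and 22.4 to 31.7 CPM in bleomycin libraries (log2 difference 0.30, SE 0.18, adjusted p = 0.254). Eif4e2, whose product binds caps without recruiting eIF4G, had a log2 difference of 0.34 (SE 0.15, adjusted p = 0.121). Eif4e3 had the lowest value of the 39 genes: it measured 25.8, 19.7, 23.4 and 20.9 CPM in naive 1 to 4 and 11.4, 11.2, 12.8, 18.6 and 21.7 CPM in bleomycin 1 to 5, a log2 difference of -0.56 (SE 0.22, adjusted p = 0.0825). Its groups overlap through bleomycin 5 alone, and without that library it was called lower (adjusted p = 0.0275). No other library left out gave a call, and the adjusted p reached 0.207 without naive 1. Eif4ebp1, an mTORC1 target, was sparse at 2.1 to 4.27 CPM in naive and 2.69 to 5.23 CPM in bleomycin libraries, and its log2 difference of 0.28 has an SE of 0.43. Eif4ebp2, the more abundant inhibitor here, had a log2 difference of 0.38 (SE 0.22, adjusted p = 0.241).

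Start codon factors were not called either. Eif1, which keeps scanning ribosomes from stopping early, had 74.5 to 96.6 CPM in naive and 48.4 to 96.8 CPM in bleomycin libraries (log2 difference -0.07, adjusted p = 0.809). Eif1ax, which encodes eIF1A, was not called although its groups did not overlap: 30.2 to 35.7 CPM in naive and 36.0 to 42.4 CPM in bleomycin libraries (log2 difference 0.24, adjusted p = 0.223). Together with 6 of the called genes it makes 7 of 39 genes (17.9%) whose groups did not overlap, beside 19.7% of all genes tested (10.4% higher, 9.35% lower). Eif1a, a close copy of Eif1ax that can share its reads, had a log2 difference of -0.07. Eif5, which triggers GTP hydrolysis on eIF2, had a log2 difference of 0.20 (adjusted p = 0.261). Eif5b had 160 to 190 CPM in naive libraries and 185, 217, 198, 345 and 207 CPM in bleomycin 1 to 5, a log2 difference of 0.39 (SE 0.16, adjusted p = 0.0880), with bleomycin 4 apart from the rest. Eif2a and Eif2d deliver initiator tRNA without eIF2, and their log2 differences were -0.07 (adjusted p = 0.834) and 0.33 (adjusted p = 0.116).

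**Figure D3:**
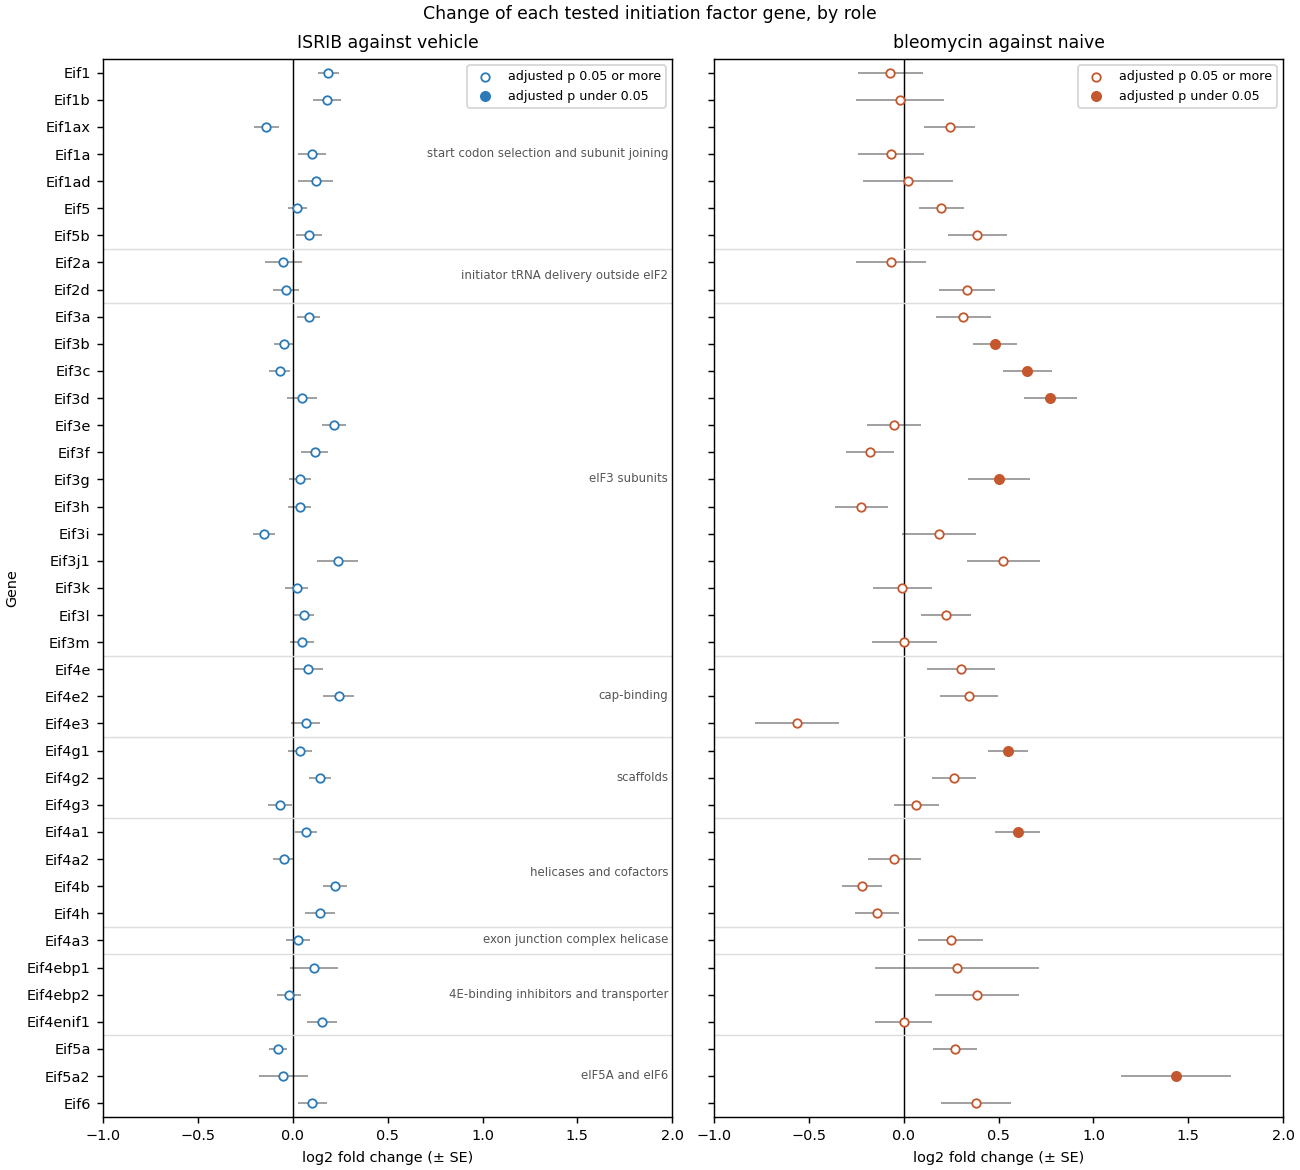
Log2 difference of each tested gene with its SE, ordered by role, for ISRIB against vehicle (left) and bleomycin against naive (right). Filled points were called at an adjusted p under 0.05: 0 genes on the left and 7 on the right.

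Promoters of 4 called genes are shown as the sequences next to the starts of genes that rose. Of the 42 genes, 31 matched a RefSeq start, among them all 7 called genes. The 250 bases before each start (RefSeq, GRCm38.p6) were searched on both strands for the E-box CACGTG and the ETS-type motif CCGGAAG, which were chosen after the values had been seen. Capitals mark the matches, and all 4 windows shown hold at least 1. The RefSeq start of Eif4g1 lies inside the gene as GENCODE annotates it, so its window precedes an internal start. The windows are Eif4g1 at chr16:20672477-20672726 on the plus strand, Eif4a1 at chr11:69672424-69672673 on the minus strand, Eif5a2 at chr3:28781027-28781276 on the plus strand and Eif3d at chr15:77970825-77971074 on the minus strand.
Eif4g1: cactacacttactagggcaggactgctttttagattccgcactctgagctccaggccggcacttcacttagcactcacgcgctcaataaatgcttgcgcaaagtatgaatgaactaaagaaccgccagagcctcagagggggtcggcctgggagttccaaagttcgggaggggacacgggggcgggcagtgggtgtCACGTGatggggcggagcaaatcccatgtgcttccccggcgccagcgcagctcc
Eif4a1: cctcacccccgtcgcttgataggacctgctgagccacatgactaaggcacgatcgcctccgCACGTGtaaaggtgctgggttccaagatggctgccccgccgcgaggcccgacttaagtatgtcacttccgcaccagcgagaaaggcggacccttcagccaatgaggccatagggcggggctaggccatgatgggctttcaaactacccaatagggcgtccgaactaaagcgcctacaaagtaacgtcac
Eif5a2: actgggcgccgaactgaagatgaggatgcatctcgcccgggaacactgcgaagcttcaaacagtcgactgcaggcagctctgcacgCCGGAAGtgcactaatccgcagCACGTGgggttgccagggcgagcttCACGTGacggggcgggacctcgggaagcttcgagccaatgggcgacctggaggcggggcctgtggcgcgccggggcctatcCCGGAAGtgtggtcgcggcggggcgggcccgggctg
Eif3d: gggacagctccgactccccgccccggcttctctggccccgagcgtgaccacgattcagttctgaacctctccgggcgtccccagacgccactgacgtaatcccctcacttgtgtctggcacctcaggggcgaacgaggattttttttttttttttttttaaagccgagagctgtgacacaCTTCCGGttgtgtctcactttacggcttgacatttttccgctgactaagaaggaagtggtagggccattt
The E-box was found 54 bases before the start of Eif4g1, 189 before that of Eif4a1, and 142 and 117 before that of Eif5a2. The ETS-type motif was found 164 and 36 bases before the start of Eif5a2, and on the opposite strand, read as CTTCCGG, 70 bases before that of Eif3d. Across the genome the E-box was in 6.02% of 32851 windows and the ETS-type motif in 6.91%. Counted by gene, 9 of 31 initiation factors (29%) had the E-box before at least 1 start and 12 of 31 (38.7%) the ETS-type motif. A gene with several starts counts once, so the shares of genes and of windows are not in the same unit. Among the called genes, Eif4a1, Eif4g1 and Eif5a2 held the E-box and Eif3c, Eif3d, Eif3g and Eif5a2 the ETS-type motif. Eif3b, also called, held neither. Genes that were not called held them too: Eif1b, Eif3f, Eif3k, Eif4e, Eif4h and Eif5a the E-box. The ETS-type motif was also before Eif1ad, Eif1ax, Eif1b, Eif3l, Eif3m, Eif4e2, Eif4ebp2 and Eif5a, none of them called. These are matches of letters only.

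Markers of other cell types moved in the same comparison. Of 10 AT1 markers, 8 were called higher after bleomycin, and their summed level was 1590 to 1820 CPM in naive and 2360 to 3030 CPM in bleomycin libraries. Of 9 fibroblast markers 4 were tested and 3 were called higher, with summed levels of 5.07 to 14.1 CPM in naive and 18.6 to 125 CPM in bleomycin libraries and Lum at 0 in all 9. Of 14 macrophage and monocyte markers 4 were tested, with 1 called higher and 1 lower by edgeR. Lyz1, which carried most of the list's sum, was called lower (log2 difference -0.75, adjusted p = 0.0277) and Cd14 higher (1.76, adjusted p = 1.06e-05). The sum was 698 to 869 CPM in naive and 281 to 748 CPM in bleomycin libraries. Marco and C1qa were at 0 and Ptprc was at most 1.58 CPM, so the sum mostly reflects Lyz1. Of 5 tested endothelial markers 2 were called higher, Cdh5 and Vwf, with sums of 20 to 28.2 CPM and 22.5 to 79.5 CPM. Of 6 tested airway markers 2 were called higher, Foxj1 (2.27 on the log2 scale) and Ccdc39 (1.72), with sums of 449 to 913 CPM and 483 to 939 CPM. Of the 12 AT2 markers, Sftpd and Napsa were called higher and Etv5 and Nkx2-1 lower. The part of these cell types in the rise of the 7 genes was not tested. Single libraries also differed: bleomycin 1 was the lowest of the 5 bleomycin libraries in 16 of the 39 genes and the highest in 3, while bleomycin 2 and bleomycin 4 were each the highest in 12. Eif3b, Eif3c, Eif3d, Eif4a1, Eif4g1 and Eif5a2 were called with any 1 library left out.

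After ISRIB, none of the 39 genes was called by edgeR's quasi-likelihood test. The background in this comparison was 2.2% of 12054 genes, 1.1% higher and 1.1% lower, and at an unadjusted p under 0.05 there were 9 of the 39 genes, 7 higher and 2 lower, beside 1934 of all 12054 genes (16%). DESeq2's Wald test called 2 of them, Eif1 and Eif4b, as higher. That test called 408 genes over all genes, against 265 by edgeR, so its background is also higher. The log2 differences ran from -0.15 to 0.24 with a median of 0.06, against -1e-04 over all genes tested, and 28 of the 39 lay above 0. The summed level of the factors was 5054.3 to 5290.7 CPM in the vehicle and 5273.6 to 5568.2 CPM in the ISRIB libraries, which overlap. By the median of centred log2 levels per library, the ISRIB libraries lay above the vehicle libraries without overlap. Neither summary carries a test.

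Eif4b, the helicase cofactor, had the lowest p. It measured 217, 248, 236 and 226 CPM in vehicle 1 to 4 and 284.5, 262, 294 and 241 CPM in ISRIB 1 to 4, a log2 difference of 0.22 (SE 0.06, adjusted p = 0.0849, edgeR). ISRIB 4 lay inside the vehicle range, and without it edgeR gave an adjusted p of 0.0395. Each other library left out gave a higher one than with all libraries, up to 0.239 without vehicle 1. Eif1 measured 183, 194, 214 and 202 CPM in vehicle 1 to 4 and 225, 216, 232 and 230 CPM in ISRIB 1 to 4. Its groups did not overlap, and the log2 difference was 0.19 (SE 0.06, adjusted p = 0.0918). Eif3e, whose product helps bring eIF4G to the ribosome, measured 116, 117, 113 and 112.5 CPM in vehicle 1 to 4 and 148, 117, 137 and 129 CPM in ISRIB 1 to 4. ISRIB 2 stood at the vehicle level, the log2 difference was 0.22 (SE 0.06, adjusted p = 0.0950), and without that library the adjusted p was 0.0270. Each other library left out raised it, up to 0.206 without ISRIB 1.

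Eif4e2 and Eif3i were the other tested genes whose groups did not overlap. Eif4e2 measured 35.9, 34.0, 37.0 and 37.4 CPM in vehicle 1 to 4 and 40.1, 41.4, 38.9 and 50.4 CPM in ISRIB 1 to 4 (log2 difference 0.24, SE 0.08, adjusted p = 0.140). Eif3i, a WD-repeat subunit of eIF3, measured 77.2, 79.2, 76.6 and 76.0 CPM in vehicle 1 to 4 and 75.5, 68.1, 67.0 and 66.8 CPM in ISRIB 1 to 4 (log2 difference -0.15, SE 0.06, adjusted p = 0.188). With Eif1 they make 3 of 39 genes (7.69%), beside 8.65% of all genes tested (4.26% higher, 4.39% lower). Eif4g2 (0.14, adjusted p = 0.227), Eif1b (0.18, adjusted p = 0.243), Eif3j1 (0.24, adjusted p = 0.296) and Eif1ax (-0.14, adjusted p = 0.305) complete the genes at an unadjusted p under 0.05, each with its log2 difference.

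**Figure D4:**
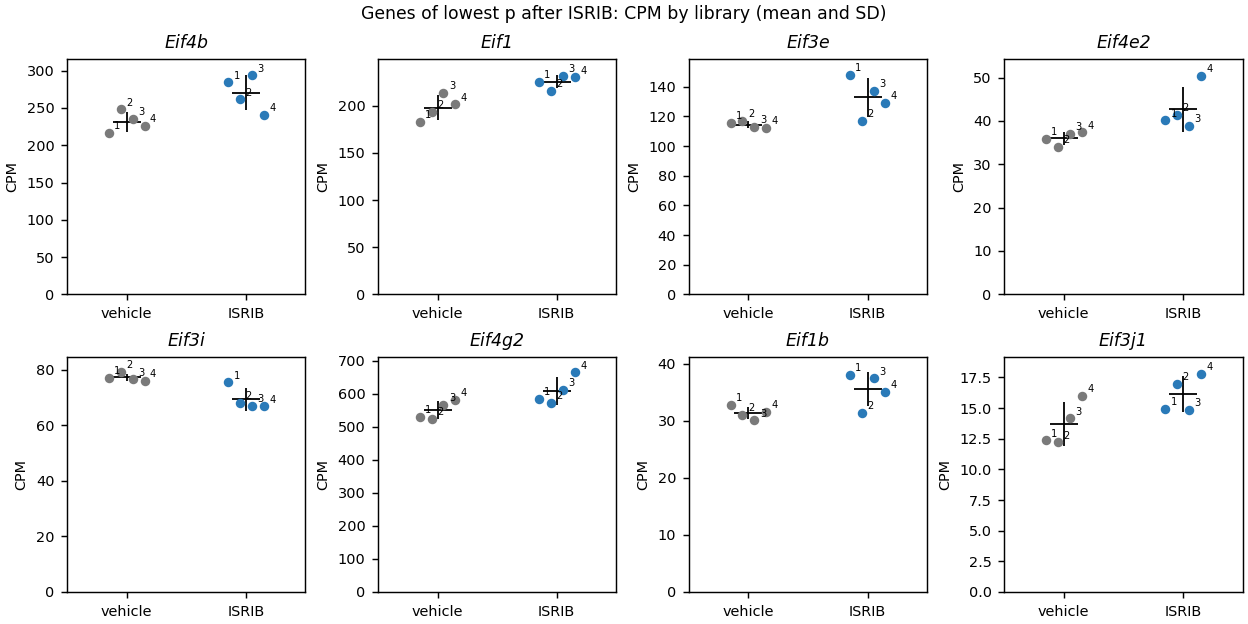
Level in CPM of the 8 genes of lowest unadjusted p in each vehicle and ISRIB library (numbered points), with group mean and SD as black crosses. None was called by edgeR, and the groups do not overlap in Eif1, Eif4e2 and Eif3i.

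The remaining genes of the panel had log2 differences from -0.08 to 0.11 after ISRIB. In the eIF4F group these were 0.08 for Eif4e (SE 0.08), 0.04 for Eif4g1 (SE 0.06), 0.07 for Eif4a1 (SE 0.06) and -0.05 for Eif4a2 (SE 0.06). For the inhibitors they were 0.11 for Eif4ebp1 (SE 0.13), with 6.84 to 8.00 CPM in vehicle and 7.07 to 8.81 CPM in ISRIB libraries, and -0.02 for Eif4ebp2 (SE 0.06). Among the remaining roles they were 0.08 for Eif3a (SE 0.06), 0.04 for Eif3h (SE 0.06), 0.02 for Eif5 (SE 0.05), 0.08 for Eif5b (SE 0.07), -0.05 for Eif2a (SE 0.10), -0.04 for Eif2d (SE 0.07), -0.08 for Eif5a (SE 0.05) and 0.10 for Eif6 (SE 0.08). None of these had an adjusted p under 0.457. Eif5a2, which rose after bleomycin, had 12.4 to 18.2 CPM in vehicle and 12.96 to 17.3 CPM in ISRIB libraries (log2 difference -0.05, SE 0.13). Macrophage and monocyte markers summed to 2050 to 2430 CPM in vehicle and 2100 to 4040 CPM in ISRIB libraries. Nearly all of that was Lyz1, which was not called by edgeR (adjusted p = 0.186). Ptprc was at most 0.197 CPM and C1qa was at 0 in both groups, so the sum mostly reflects Lyz1. The macrophage marker Chil3 was called lower from at most 1.55 CPM (log2 difference -1.84, adjusted p = 0.0440), and so was the AT2 marker Etv5 (-0.28, adjusted p = 0.00817). The sums of airway markers were 3830 to 4290 and 2370 to 4160 CPM.

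Paralogs were also set against each other as ratios of counts, which are not scaled to length. For the helicases, the ratio of Eif4a2 to Eif4a1 was 2.92, 3.33, 3.52 and 3.64 in naive 1 to 4 and 3.01, 1.21, 2.4, 2.1 and 2.22 in bleomycin 1 to 5. Naive 1 lay below bleomycin 1, and every other naive library lay above every bleomycin library. The means differed by -0.67 on the log2 scale (-0.80 to -0.47 with a library left out). For the scaffolds, the ratio of Eif4g2 to Eif4g1 was 1.35, 1.27, 1.39 and 1.24 in naive 1 to 4 and 0.966, 1.21, 1.18, 0.871 and 1.2 in bleomycin 1 to 5. These groups did not overlap, and the means differed by -0.28 on the log2 scale (-0.33 to -0.21 with a library left out). After ISRIB the same 2 ratios overlapped between groups, with differences of -0.12 (-0.17 to -0.0752 with a library left out, smallest without ISRIB 4) and 0.11 (0.0702 to 0.17, smallest without ISRIB 3 or vehicle 1 and largest without ISRIB 2). The ratio of Eif4ebp1 to Eif4e differed by 0.01 after bleomycin (-0.16 without bleomycin 2 to 0.25 without naive 2) and by 0.03 after ISRIB (-0.0547 without ISRIB 2 to 0.1006 without ISRIB 3), so its sign depended on single libraries. These ratios carry no test.

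**Figure D5:**
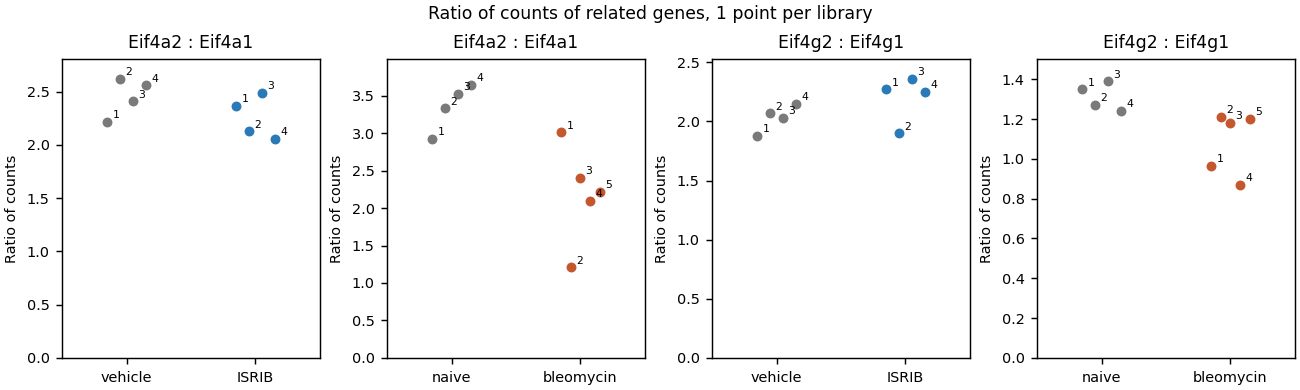
Ratio of counts of the helicase paralogs (Eif4a2 to Eif4a1) and of the scaffolds (Eif4g2 to Eif4g1) in each library, 1 numbered point per library, for both comparisons. The scaffold ratio is 1.24 to 1.39 in the naive and 0.871 to 1.21 in the bleomycin libraries.

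Genes that work beside these factors were described from lists of the pathway. Of 16 tested genes that signal through mTORC1 or the MNK kinases to initiation, 2 rose and 2 fell after bleomycin (25%, beside 20.5% of all genes tested). Sesn2, an mTORC1 inhibitor induced by stress, had 17.1 to 25 CPM in naive and 29.4 to 44.8 CPM in bleomycin libraries (rise of 0.85 on the log2 scale, adjusted p = 0.00246). Pdcd4, which encodes an inhibitor of eIF4A, rose by 1.16 with overlapping groups (adjusted p = 0.0362). Deptor, which encodes an inhibitory partner of mTOR, had 126 to 157 CPM in naive and 57.9 to 79.8 CPM in bleomycin libraries (log2 difference -1.17, adjusted p = 3.37e-06). Rps6kb1, which encodes the S6 kinase, fell by 0.39 (adjusted p = 0.0419).

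Of 5 poly(A)-binding proteins and regulators 1 rose (20%), Paip2b, an inhibitor of the poly(A)-binding protein (0.67 on the log2 scale, adjusted p = 0.0050). Of 14 other initiation, recycling and hypusination genes 2 rose and 1 fell (21.4%): Abce1, the ribosome recycling factor, rose by 0.63 (adjusted p = 0.00678), and Gigyf1, a partner of the protein of Eif4e2, fell by 0.52 with overlapping groups (adjusted p = 0.0342). The other riser was Bzw1, which encodes a competitor of eIF5 (0.58 on the log2 scale, adjusted p = 0.0137, edgeR), with overlapping groups. Of 7 tested elongation and termination genes 2 rose (28.6%), the termination factor genes Etf1 (0.51 on the log2 scale, adjusted p = 0.0112) and Gspt1 (0.54, adjusted p = 0.00589). Bzw1, Etf1 and Gspt1 were named after their values had been seen. The eIF2 and eIF2B subunits, 9 genes in all, had 3 called higher (33.3%) and a median of 0.53 on the log2 scale. These shares are set beside 20.5% of all genes and were not tested. After ISRIB no gene of the pathway lists was called by edgeR, of 43 tested; at an unadjusted p under 0.05 there were 3 of the 16 signalling genes, 0 of the 5, 0 of the 14 and 2 of the 8 elongation and termination genes, beside 16% of all genes tested.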

How the data were processed

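Each kit has 1 deposited table of read counts for every gene ID. That these are counts was judged from the numbers, all whole and with library totals that differ. The submitters' processing notes name bcl2fastq 2.19.1, FastQC, Trimmomatic 0.36, STAR 2.6.0, HTSeq 0.11.2 and the build mm10, with no role or order. Neither the annotation nor the strand setting is stated in those sources. GENCODE M21 (GRCm38) gave symbols, positions and exon lengths through the gene ID, and 42546 IDs had a symbol. Each library has its own column.

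ISRIB was compared with vehicle (4 against 4 libraries) and bleomycin with naive (5 against 4). The quasi-likelihood test of edgeR 4.0.16 (R 4.3.3, two-sided) was run on a model of group alone, after filterByExpr (at least 10 counts, total 15) and TMM scaling. Benjamini-Hochberg adjustment covered all tested genes, and genes were called at an adjusted p under 0.05. The SE is the unshrunk log2 fold change divided by the root of F. CPM come from filtered counts and TMM-adjusted sizes. The common biological coefficient of variation was 7.66% for ISRIB and 21.1% for bleomycin. The procedure was tested on simulated data. Total counts per library, 3295257 to 15727139, limit what low genes can show.

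Described in full were called genes and a panel of Eif1, Eif5, Eif5b, Eif2a, Eif2d, Eif3a, Eif3e, Eif3h, Eif4e, Eif4g1, Eif4g2, Eif4a1, Eif4a2, Eif4b, Eif4ebp1, Eif4ebp2, Eif5a and Eif6; from the pathway lists, at most the 4 largest called rises and 4 largest called falls of each comparison. The genes, roles, pathway and marker lists were chosen with earlier results of these data known. Alternatives were DESeq2 size factors in edgeR, no filter, the Wald test of DESeq2 1.42.0, a replicate block, each library left out and, for bleomycin, ribosomal-RNA-like models left out.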

Additional observations from a re-analysis of the deposited data

Results flagged for a closer look

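Among 156 groups of libraries, 1 for each tested gene and group, 11 held a library whose gap to its nearest neighbour was large for the range of the group. Chance gives about 1 in 20 such groups.

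In the bleomycin comparison, Eif5b was at 345 CPM in bleomycin 4 and at 185 to 217 in the others, and Eif4e at 31.7 CPM in bleomycin 5 and at 22.4 to 24.3 in the others. Eif3k was low in bleomycin 1, at 33.1 CPM against 50.7 to 56.8. Eif3l was low in naive 3, at 57 CPM against 70.1 to 72.1. Eif4a1, 1 of the called genes, was at 91.6 CPM in naive 1 and at 77.3 to 78.4 in the other naive libraries, and its call held without naive 1.

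In the ISRIB comparison, vehicle 1 was high in Eif5 (174 CPM against 162 to 164) and in Eif2a (57.1 CPM against 44.9 to 46.4). Vehicle 4 was high in Eif3c (201 CPM against 178 to 180) and in Eif1ax (81.4 CPM against 68.6 to 69.1). ISRIB 1 was high in Eif2d (40.2 CPM against 37.5 to 37.8) and in Eif3i (75.5 CPM against 66.9 to 68.1).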

How the results depend on the processing

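Sparse genes have the widest errors, such as the SE of 0.43 of Eif4ebp1 after bleomycin, and how much of that is depth was not tested. Eif3b, Eif3c, Eif3d, Eif4a1, Eif4g1 and Eif5a2 were called higher after bleomycin in every alternative run, with the largest adjusted p at 0.0325 for Eif3b. Eif3g was called in each alternative that kept all libraries.

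After ISRIB, 0 genes were called by edgeR, 2 without the filter (Eif3e and Eif4b), 2 by DESeq2 (Eif1 and Eif4b), and 0 to 1 with a library left out. Over all genes the 265 calls became 648 without the filter, 408 with DESeq2 and 86 to 269 with a library left out. The fewest, 86, 102 and 159, came without vehicle 1, vehicle 2 and ISRIB 4. The median of helicases and cofactors was 0.0515 to 0.1421 with a library left out. The cause of these shifts was not tested.

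After bleomycin, the number called lower was 0, 1 with the replicate block (Eif4e3) and 0 to 1 with a library left out. The number called higher was 6 to 10 with a library left out, 10 without bleomycin 1. Over all genes the 2304 calls became 1554 to 2584 with a library left out and 2187 to 2589 in the other alternatives. The median of all 39 genes was 0.14 to 0.28 with a library left out, and lowest without bleomycin 2. Dropping the filter moved the median of all genes to -0.27, and the cause was not tested.

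Genes with log2 differences near 0 changed sign. With a library left out, the values after ISRIB ran from -0.12 to 0.0372 for Eif2a, -0.069 to 0.0084 for Eif2d, -0.0012 to 0.13 for Eif3d, -0.0188 to 0.0507 for Eif3k, -0.0576 to 0.0088 for Eif4ebp2, -0.002 to 0.077 for Eif4g1, -0.0035 to 0.0493 for Eif5 and -0.14 to 0.041 for Eif5a2. After bleomycin they ran from -0.14 to 0.0665 for Eif1, -0.19 to 0.0354 for Eif1a, -0.0625 to 0.13 for Eif1ad, -0.14 to 0.0803 for Eif1b, -0.17 to 0.0202 for Eif2a, -0.0957 to 0.0514 for Eif3e, -0.0845 to 0.11 for Eif3k, -0.0937 to 0.0816 for Eif3m, -0.12 to 0.0722 for Eif4a2 and -0.14 to 0.0807 for Eif4enif1. Without the filter Eif1b was at 0.0048 and Eif3k at 0.015, and Eif4enif1 was at -5e-04 with DESeq2 size factors in edgeR and by DESeq2.

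No pairing of libraries by replicate number was seen: the correlations of same-numbered deviations were -0.107 to 0.088 for ISRIB and -0.034 to 0.039 for bleomycin. Numbers 3 and 4 of the ISRIB comparison correlated best with their own number, and no number did in the bleomycin comparison. The labels do not say whether libraries were paired, and these correlations cannot exclude it. With the replicate block, 0 genes were called after ISRIB and 9 after bleomycin, the added ones being Eif3j1 and Eif4e3. The block put Eif1a at 0.016, Eif1ad at -0.048 and Eif4enif1 at -2e-04.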
